A study of Rattus with 9 samples.

Results

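The genes described are 8: the lymphoid-organizing chemokines Cxcl13 and Ccl19 with their receptors Cxcr5 and Ccr7, the B cell survival factor Tnfsf13b (BAFF) with its receptor Tnfrsf13c (BAFF receptor), and the lymphotoxin genes Lta and Ltb. They were taken by symbol from the gene column of every count matrix, and 8 of 23836 symbols matched, each with 1 identifier. The data are single-cell RNA-seq of rat bile duct. Tissue was digested to single cells, red cells were lysed and dead cells removed, and libraries that tag the poly(A) end of each transcript were read as unique molecular identifiers (UMIs), so that 1 UMI stands for 1 captured RNA molecule. There were 9 samples: 3 sham samples, 3 samples of liver transplantation (LT) with ischemic injury (ctrl, 1 each at days 1, 3 and 7), and 3 samples of the same operation with arterial flow raised by ligation of the splenic and gastric-duodenal arteries (treat, 1 each at days 1, 3 and 7). The study's methods name Sprague-Dawley rats of both sexes and give an age in weeks. The study credits its single-cell data of rat bile duct to prior work, so that these methods may not cover the rats used here. The labels give no strain, sex or age, and the number of rats behind a sample is not stated. As the series describes the arms, every transplant sample carried both the LT and the ischemic injury, the sham samples carried neither, and graft and recipient cells were not told apart.

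After filters on genes per cell, mitochondrial and hemoglobin reads and doublets, 139893 of 161207 barcodes with over 400 genes remained, with 2305 to 31721 cells and 9196171 to 191997642 UMIs per sample. A total of 20 libraries entered, 1 for each sham sample and 2 or 3 for each transplant sample, and the libraries of a sample were summed. Cells were clustered without the 8 genes, and clusters were named from marker lists as 18 types, each written as X-like, and 20409 cells (14.59%) stayed unnamed. The label bile duct matched its markers: 20820 cells (14.88%) were biliary epithelial cell (BEC)-like, and all 10 BEC markers summed to 2503 to 10700 CPM per sample, where CPM is a gene's UMIs per 1e6 UMIs. Samples differed in other tissue: 8 endocrine markers, such as Ins1 and Gcg, summed to 1254, 1160 and 939 CPM in sham 2, sham 3 and ctrl day 3. In the other samples they summed to 3.45 to 33.8 CPM. Libraries 2 and 3 of ctrl day 3 kept only 414 and 312 cells. Without the hemoglobin limit ctrl day 3 would keep 13000 cells in place of 7618. Libraries of a sample shared at most 0.323% of their barcodes.

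In lymphoid organs, Cxcl13 from stromal cells draws Cxcr5-bearing B cells and follicular helper T cells into follicles, and Ccl19 draws Ccr7-bearing naive T cells and mature dendritic cells (DCs) into the T zone. Tnfsf13b keeps mature B cells alive by engaging Tnfrsf13c on their surface. Lta and Ltb form the lymphotoxin heterotrimer that acts on Ltbr of stromal cells, and the same genes are known from lymphoid aggregates that form in chronically inflamed tissue.

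The chemokine genes and Tnfsf13b lay mostly in macrophage-like, fibroblast-like and vascular smooth muscle cell (VSMC)-like cells, Tnfrsf13c in B-like cells and Lta in T-like and NK-like cells. Of the 30954 UMIs of Cxcl13, 88.7% lay in macrophage-like cells. Of the 104101 UMIs of Ccl19, 44.1% lay in fibroblast-like, 36.4% in VSMC-like and 17.9% in unnamed cells. Library 3 of treat day 1 alone held 42542 of them, and without it the shares were 13.5% in fibroblast-like, 56.75% in VSMC-like and 27.5% in unnamed cells. Of the 11100 UMIs of Tnfsf13b, 72.5% lay in fibroblast-like and 15.5% in macrophage-like cells. Of the receptor genes, Tnfrsf13c had 78.7% of its 9961 UMIs in B-like cells, and Ccr7 had 31.1%, 18.8% and 11.1% of its 2167 UMIs in T-like, B-like and mature DC-like cells, with a further 27.9% in unnamed cells. Lta had 542 UMIs, of which 62.0% were in T-like and 12.4% in NK-like cells. Cxcr5 had only 115 UMIs, 49 of them in B-like and 24 in T-like cells. Ltb (ENSRNOG00000000836) had 7 UMIs in all cells together, below any test, so that neither its level nor its change could be measured here.

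**Figure D1:**
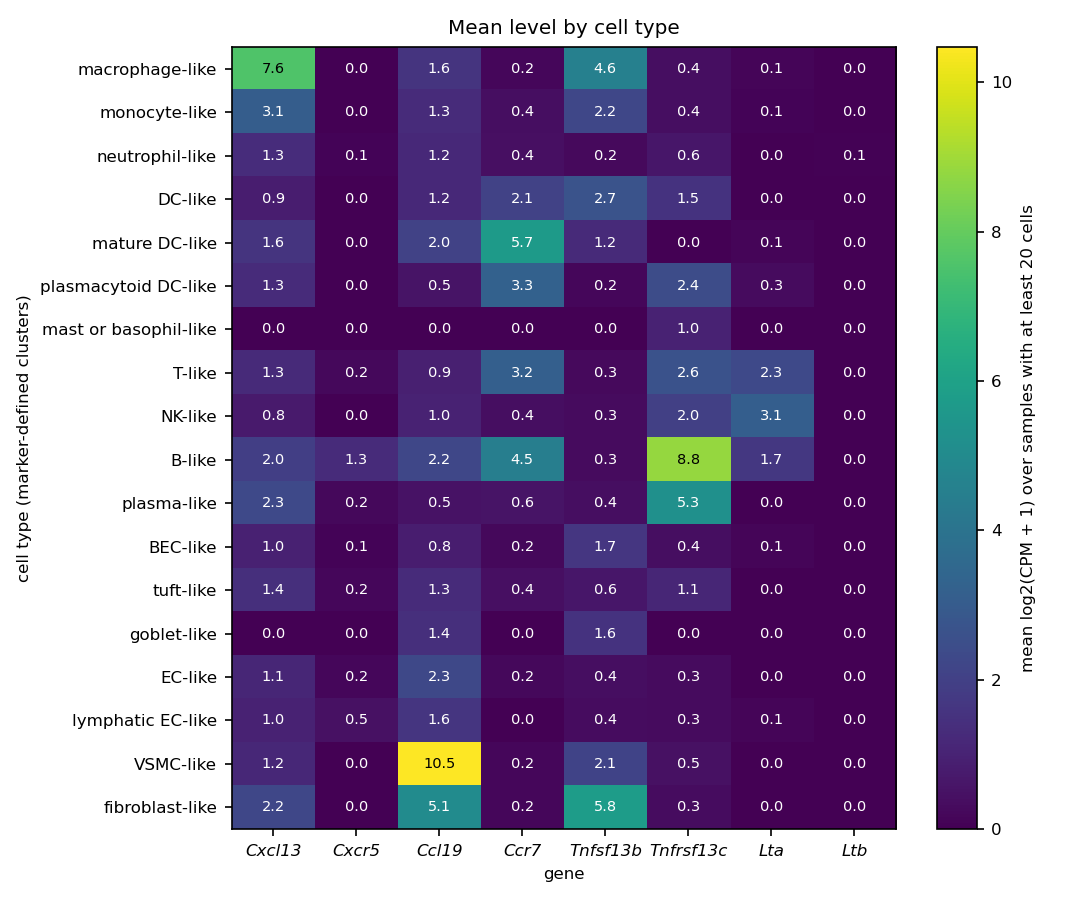
Mean level of each gene in each named cell type, as log2(CPM + 1) averaged over samples with at least 20 cells of the type. Cxcl13 stands out in macrophage-like cells, Ccl19 in VSMC-like cells, Tnfsf13b in fibroblast-like cells and Tnfrsf13c in B-like cells; levels are to be read within a gene, not between genes.

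Cell types were ordered for each gene by the mean of log2(CPM + 1) over samples with at least 20 cells of the type, and neighbours in that order were compared; the values given here are medians of CPM, whose order can differ from that of the means. Sham samples hold few lymphoid cells, so that the types differ in the number of samples behind them. For Cxcl13 (ENSRNOG00000024899), macrophage-like cells had a median of 248 CPM (range 15.04 to 629, n = 9), monocyte-like cells 16.9 (0 to 61.5, n = 7) and fibroblast-like cells 3.17 (0.40 to 65.3). Macrophage-like cells were higher than monocyte-like cells in 6 of 7 samples, by 4.82 on the log2(CPM + 1) scale (SD 3.49; exact sign-flip test over samples, two-sided, p = 0.03125, adjusted p = 0.4115 over 79 neighbouring pairs), which missed the adjusted threshold. For Ccl19 (ENSRNOG00000015668), VSMC-like cells had a median of 1039 CPM (510 to 9744), fibroblast-like cells 22.4 (1.66 to 484) and endothelial cell (EC)-like cells, next by mean, 2.52 (0.51 to 18.7). The medians of B-like (6.01), mature DC-like (3.05) and macrophage-like cells (2.66) were above that of EC-like cells. VSMC-like cells were higher than fibroblast-like cells in 9 of 9 samples, by 5.41 (exact p = 0.003906, the smallest this design can give, adjusted p = 0.154).

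For Tnfsf13b (ENSRNOG00000014464), fibroblast-like cells had a median of 46.8 CPM (24.4 to 147), macrophage-like cells 17.2 (12.1 to 59.4) and DC-like cells, next by mean, 5.38 (3.83 to 7.19), with medians of 6.11 in monocyte-like and 5.53 in VSMC-like cells. The fibroblast-like value was the higher in 8 of 9 samples, by 1.22 (exact p = 0.0117, adjusted p = 0.23). For Tnfrsf13c (ENSRNOG00000007664), B-like cells had a median of 428 CPM (311.5 to 682, n = 6), plasma cell-like cells 37.6 (2 samples) and T-like cells 4.89 (0 to 19.4). No sample of another type reached the lowest B-like value. For Ccr7 (ENSRNOG00000010665), mature DC-like cells had a median of 49.7 CPM (41.5 to 65.5, n = 4), B-like cells 21.1 (16.0 to 27.2, n = 6) and T-like cells 12.1 (0 to 22.7), the last overlapping B-like cells. Among the named types, Lta (ENSRNOG00000000838) was highest in NK-like cells, at 12.4 CPM (0.589 to 23.9), against 4.35 (0 to 10.5) in T-like and 2.45 (0 to 7.99) in B-like cells. In the unnamed cluster c23 it ranged from 0 in sham 1 to 22.65 CPM in ctrl day 3. NK-like cells exceeded T-like cells in 6 of 9 samples (exact p = 0.2617), and the order of these types cannot be read beyond their spread. Cxcr5 (ENSRNOG00000012430) had medians of 1.85 CPM (0 to 3.25) in B-like and 0.263 in T-like cells. None of the 79 neighbouring pairs passed an adjusted p of 0.05. The smallest exact p that a pair could give was 0.003906 with 9 samples and 0.03125 with 6, before adjustment, so that this outcome does not show the types to be alike.

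The genes most alike to each member across the 18 types (Pearson's r of mean log2(CPM + 1), 15581 genes, a description since types share libraries and depth) were as follows. For Ccl19 they were the smooth muscle genes Myl9 (r = 0.98) and Acta2 with Trarg1, Tbx2 and Shisa4. For Cxcl13 they were C3ar1 (0.92), Slc2a5, C1qb, Gdf3 and C1qc, of which C1qb and C1qc encode complement C1q of macrophages. For Tnfrsf13c they included Cd79a (0.96) and Cd79b of the B cell receptor, Pde6h and Try10. For Cxcr5 they were the complement receptor gene Cr2 (0.91), Camk2a, Fcrl1, the B lineage factor Pax5 and Atp6v1g3. For Ccr7 they were Blk (0.97), Megf10, Tph2, Irf4 and Il4i1. For Tnfsf13b they were Angpt4 (0.88), Slc1a3, Steap3, C6 and Igf1, and for Lta they were Nlrc3 (0.98), Usp44, Ly9, AABR07058479.1 and Gzmm. Some of these, such as Acta2, Cd79a and Cd79b, also served to name the types.

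Across the whole tissue the chemokine, receptor and survival genes were compared between sham and each day after LT (mean of ctrl and treat at that day), between days 7 and 1, and between treat and ctrl with the day as a paired term. UMIs were summed per sample and tested with edgeR's quasi-likelihood test with Benjamini-Hochberg adjustment over 16427 genes; sample levels below are CPM with edgeR's TMM scaling. In summed tissue, fewer cells of a type and less RNA per cell cannot be told apart. Ccr7, Cxcl13 and Tnfrsf13c were higher at day 7 than in sham, Ccr7 also at day 3, and no member was called at day 1, between days 7 and 1 or between treat and ctrl. That is 3 of 7 tested members at day 7 against 7.97% of all genes, 1 of 7 at day 3 against 5.18%, 0 of 7 at day 1 against 4.54%, and 0 of 7 between days 7 and 1 against 3.08%. In the comparisons with no call, 3 members at day 1, 5 between days 7 and 1 and 2 between treat and ctrl had an unadjusted p under 0.05. Over all genes that share was 3.57% between treat and ctrl. It is not given for the other comparisons, so that the counts of 3 and 5 cannot be set against it. DESeq2 called 2, 4 and 1 members in the same comparisons, where it called 21.5, 16.4 and 0.268% of all genes. The median log2 fold change of the 7 members was 1.16, 2.59 and 2.01 at days 1, 3 and 7 against sham, where that of all genes was -0.08, -0.09 and -0.05. The 3 comparisons share the sham samples.

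Cxcl13 in all cells stood at 9.69, 1.96 and 3.34 CPM in sham 1, 2 and 3. It stood at 12.3, 43.8 and 80.15 CPM in ctrl at days 1, 3 and 7, and at 9.22, 33.4 and 93.3 CPM in treat. Both arms held more at each later day, the day 1 samples lay at or near sham 1, and days 3 and 7 did not overlap with sham. Library 1 carried ctrl at days 1 and 3: without it the unscaled level went from 10.85 to 1.08 CPM at day 1, below every sham sample, and from 41.96 to 5.205 CPM at day 3, below sham 1 at 12.7. The log2 fold change was 4.19 (SE 0.65, adjusted p = 0.0204) at day 7, 3.00 (SE 0.63, adjusted p = 0.0505) at day 3 and 1.16 (SE 0.62, adjusted p = 0.278) at day 1. Day 7 exceeded day 1 by 3.03 (SE 0.72, adjusted p = 0.0776).

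Tnfrsf13c stood at 1.74, 0.457 and 0.780 CPM in sham, at 1.23, 5.20 and 37.5 CPM in ctrl at days 1, 3 and 7, and at 4.08, 14.1 and 20.3 CPM in treat. The gene encodes the main BAFF receptor of mature B cells, and its level was above every sham sample at days 3 and 7 in both arms. Library 3 of ctrl day 7 held 3728 of the 9961 UMIs, and without it the unscaled level of that sample was 13.6 in place of 33.9 CPM, below treat day 7 at 20.4. The log2 fold change at day 7 was 5.19 (SE 0.78, adjusted p = 0.0187), at day 3 it was 3.31 (SE 0.74, adjusted p = 0.0573) and at day 1 it was 1.43 (SE 0.73, adjusted p = 0.262). Ccr7 stood at 0.580, 0.321 and 0.303 CPM in sham, at 1.70, 1.57 and 5.18 CPM in ctrl, and at 1.92, 4.76 and 3.69 CPM in treat. Every transplant sample was above every sham sample, but without its library 1 ctrl day 1 went from 1.495 to 0.519 unscaled CPM, below sham 1 at 0.761. The log2 fold change was 2.29 (SE 0.53, adjusted p = 0.0621), 3.01 (SE 0.54, adjusted p = 0.0344) and 3.63 (SE 0.54, adjusted p = 0.0186) at days 1, 3 and 7.

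These calls depended on single samples. At day 7, Ccr7 lost its call without sham 2 (adjusted p = 0.0906), sham 3 (0.0901), ctrl day 7 (0.199) or treat day 7 (0.0744). Cxcl13 lost it without sham 2 (0.0597), sham 3 (0.0882), ctrl day 7 (0.165), treat day 7 (0.147) or library 1 of ctrl day 1 (0.0573), and Tnfrsf13c without sham 2 (0.0784), sham 3 (0.0889) or ctrl day 7 (0.161). The day 3 call of Ccr7 held only without sham 1 among the sample exclusions (adjusted p of the others 0.0561 to 0.213) and was also lost without library 1 of ctrl day 1 (0.0674) or of ctrl day 3 (0.0708). Without sham 1, 4 members were called at day 1 (Ccl19, Ccr7, Cxcl13 and Tnfsf13b, the last lower), 4 at day 3 (Ccr7, Ccl19, Cxcl13 and Tnfrsf13c) and 3 between days 7 and 1 (Cxcl13, Lta and Tnfrsf13c), in fits that called 12.7, 14.8 and 11.4% of all genes. Without ctrl day 7, 0.0179% of all genes were called at day 7.

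**Figure D2:**
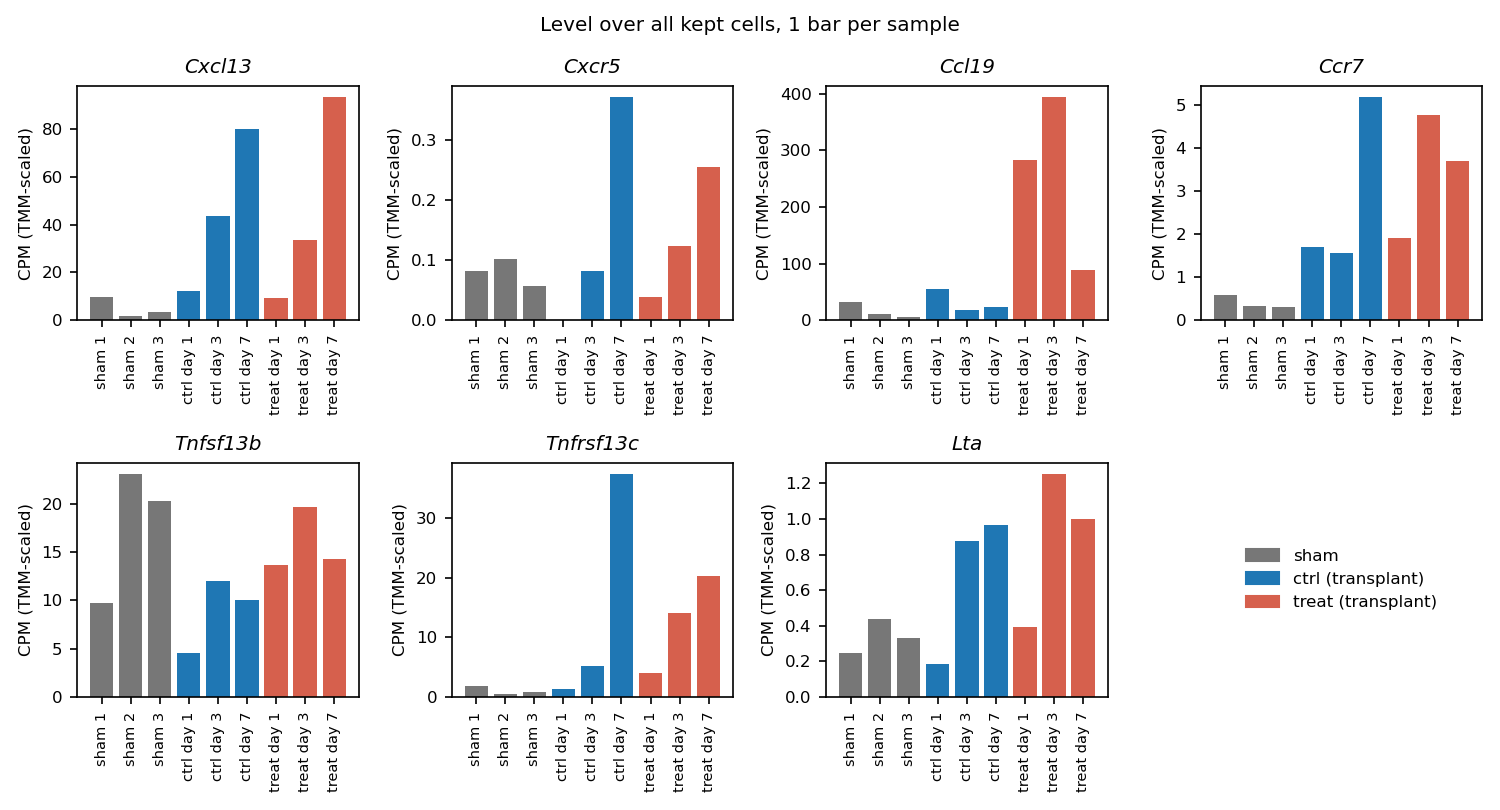
TMM-scaled CPM of 7 genes in all kept cells of each sample, 1 bar per sample, with a linear axis from 0 for each gene. Cxcl13 and Tnfrsf13c at days 3 and 7, and Ccr7 at every day, are above all sham samples, for Cxcl13 in ctrl day 3 and Ccr7 in ctrl day 1 only with library 1 of those samples, whereas Ccl19 is highest in the 3 treat samples.

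Ccl19 in all cells stood at 31.5, 11.9 and 5.30 CPM in sham, at 55.5, 17.6 and 23.7 CPM in ctrl at days 1, 3 and 7, and at 283, 394 and 89.2 CPM in treat. Each treat sample was above every ctrl and sham sample, by 5.11-, 22.4- and 3.77-fold over ctrl of the same day. Days 1 and 3 rested on single libraries: as unscaled CPM, treat day 1 fell from 262 to 61.9 without its library 3, ctrl day 1 from 48.9 to 6.92 without its library 1, and ctrl day 3 from 16.9 to 0.9185 without its library 1. Without library 3 of treat day 1 the fitted difference was 2.14. With all libraries the difference of 2.88 (SE 0.81, unadjusted p = 0.011) had an adjusted p of 0.982 with edgeR's quasi-likelihood test, which called 0% of the 16427 genes between treat and ctrl; 587 genes (3.57%) had an unadjusted p under 0.05, and DESeq2 called 10 genes higher and 34 lower, with Ccl19 higher (adjusted p = 0.0339). Against sham the log2 fold changes were 2.99 (adjusted p = 0.0890), 2.59 (0.117) and 1.60 (0.238).

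The remaining members moved less or were sparse. Tnfsf13b stood at 9.69, 23.1 and 20.3 CPM in sham, at 4.55, 11.97 and 10.1 in ctrl and at 13.7, 19.7 and 14.3 in treat. Sham overlapped each arm, and every treat sample was above every ctrl sample. The log2 fold changes of Tnfsf13b were -1.14 (adjusted p = 0.156), -0.21 and -0.55 against sham. Lta stood at 0.249, 0.440 and 0.332 CPM in sham, 0.186, 0.877 and 0.965 in ctrl and 0.394, 1.26 and 1.00 in treat, and its changes at days 3 (1.56, adjusted p = 0.0747) and 7 (1.48, adjusted p = 0.0689) missed the threshold although no sample of those days overlapped with sham. Cxcr5 ranged from 0 to 0.372 CPM, with 49 and 34 UMIs in ctrl and treat at day 7 and 10 or fewer in every other sample; its day 7 change was 2.01 (adjusted p = 0.143). Between treat and ctrl, the other 6 members had log2 differences of -0.20 (Cxcl13) to 0.93 (Tnfsf13b, unadjusted p = 0.0436).

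Within cell types, a member was tested wherever a type had enough samples with at least 20 cells: 21 tests in 8 types against sham, and 27 tests in 10 types between days 7 and 1 and between treat and ctrl. In these tests 1 member level was higher at day 1 against sham, 1 at day 3 and 4 at day 7, with 1 lower at day 7, where 11.8, 4.42 and 3.66% of all gene tests in the same types were called. A further 3 were higher at day 7 than at day 1 (7.47% of all gene tests called), and 1 was higher in treat than in ctrl (0.0563%).

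The treat call was Ccl19, the Ccr7 ligand of the T zone, in VSMC-like cells. It stood at 598, 666 and 1086 CPM in sham 1, 2 and 3, at 848, 997 and 527 CPM in ctrl at days 1, 3 and 7, and at 3157, 10430 and 3965 CPM in treat. The ctrl samples lay in and around the sham range, and each treat sample was above all 6 others, by 3.72-, 10.5- and 7.52-fold over ctrl of the same day. The log2 difference was 2.73 (SE 0.31, adjusted p = 0.00708, edgeR's quasi-likelihood test; 0.445% of all genes tested in these cells were called). Against sham, the mean of both arms at day 3 was higher by 2.09 (SE 0.33, adjusted p = 0.00795 by the same test, 3.44% of genes called). At that day ctrl, at 997 CPM, lay within the sham range, and treat, at 10430 CPM, lay above it. Days 1 (1.13, adjusted p = 0.0656) and 7 (0.89, adjusted p = 0.16) were not called.

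Libraries of a sample differed in this value. As unscaled CPM, the libraries of ctrl day 1 held 1699, 71.7 and 143, those of ctrl day 7 held 389, 417 and 1279, and all VSMC-like cells of ctrl day 3 came from 1 library, at 1039. Those of treat held 237, 4170 and 4630 at day 1, 10390 and 9313 at day 3, and 6545, 2167 and 2625 at day 7. Of the 8 treat libraries, 7 were above every ctrl and sham library, and library 1 of treat day 1 was not. The treat call was lost without the day term that pairs ctrl and treat, the replicate block (2.89, adjusted p = 0.220), with libraries entered separately (2.41, 0.187), without treat day 7 (2.66, 0.0508) and without library 3 of ctrl day 1 (2.52, 0.176). The day 3 call was lost with libraries entered separately (0.305) and without sham 2 (0.0559), treat day 3 (1.57, 0.0664) or library 3 of ctrl day 1 (0.0826).

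Ccl19 was carried by a minority of VSMC-like cells. Cells with at least 10 UMIs were 301 of 1919 (15.7%) and held 97.4% of the VSMC-like UMIs. They numbered 4, 2 and 3 in sham, 13, 2 and 40 in ctrl and 70, 119 and 48 in treat, out of 72, 114 and 79, 312, 53 and 465, and 257, 323 and 244 VSMC-like cells. With each cell thinned to 1000 UMIs, the percentage with a Ccl19 UMI was 8.45, 4.72 and 6.67 in sham, 8.74, 12 and 16.0 in ctrl and 37.0, 49.2 and 30.1 in treat, where BEC-like cells had 0 to 0.61%; unthinned it was 12.5, 6.14 and 8.86, 16.0, 24.5 and 25.4, and 40.9, 57.6 and 42.2. The treat percentages were above all others at each day by either count. Intervals here and below are exact binomial and cover counting error only.

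**Figure D3:**
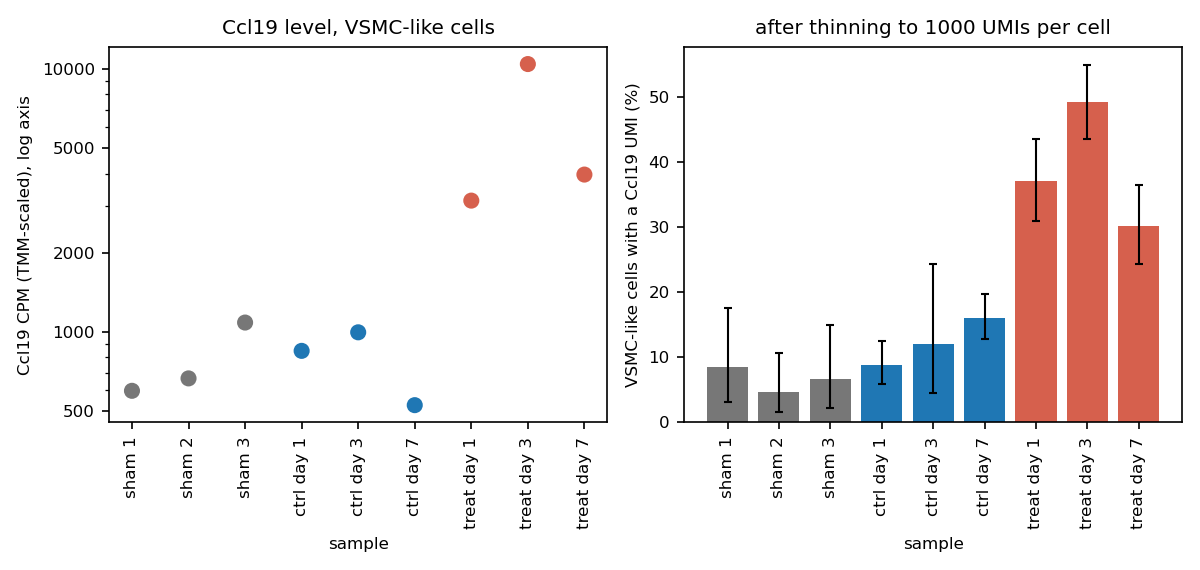
Ccl19 in VSMC-like cells of each sample. Left, TMM-scaled CPM on a log axis; right, percentage of cells with at least 1 Ccl19 UMI after thinning to 1000 UMIs per cell, with 95% exact binomial intervals. The treat samples, at 3157 to 10430 CPM and 30.1 to 49.2% of cells, lie above all sham and ctrl samples.

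In fibroblast-like cells Ccl19 stood at 19.0, 5.28 and 1.53 CPM in sham, 19.7, 16.2 and 25.4 CPM in ctrl and 516, 491 and 71.2 CPM in treat. Again every treat sample was above every other sample, but the spread was wider and the difference of 3.79 (SE 1.05) had an adjusted p of 0.273 (0.0249% of genes called). The mean of both arms at day 1 was higher than sham by 4.55 (SE 1.19, adjusted p = 0.0325), in cells where 32.6% of all genes were called. At that day ctrl, at 19.7 CPM, was close to sham 1 at 19.0 CPM, and treat stood at 516 CPM. At treat day 1, library 3 held 37598 of 40690 UMIs (1223 unscaled CPM, against 80.1 and 36.1 in the others), and without it the change was 2.95 (adjusted p = 0.0828). The day 1 call was also lost without doublet removal (1.72, adjusted p = 0.512), without a filter on low counts (0.0851), with libraries entered separately (0.0861), without sham 2 (0.140), sham 3 (0.118), ctrl day 1 (0.0747), treat day 1 (0.155) or treat day 3 (0.0518), and without library 1 of ctrl day 1 (0.0847), ctrl day 3 (0.0650) or treat day 7 (0.0580).

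The fibroblast-like clusters changed with the day. Cluster c8, led by Mgp, Ptx3 and Dcn, made up 95.8 and 97.3% of fibroblast-like cells of ctrl and treat at day 1, c7, led by Col3a1 and Ogn, 60.3 to 81.9% in sham, and c10, led by Col3a1 and Mfap5, 86 to 98% at days 3 and 7. Fibroblast-like cells were 4.08, 34.3 and 46.1% of sham cells, 2.76, 5.95 and 3.27% of ctrl cells and 24.2, 5.69 and 3.58% of treat cells. The part of cluster makeup in the day comparisons was not tested. Inside c10 Ccl19 stood at 107.5 (13 cells), 6.99 and 3.49 unscaled CPM in sham, at 24.6 (15 cells), 17.6 and 24.85 in ctrl and at 10.1, 491 and 72.9 in treat, so that treat was above ctrl at days 3 and 7 and below it at day 1, and sham 1 was above treat day 7. Inside c8 it stood at 15.5, 7.08 and 84.5 in ctrl and at 503, 33.9 and 27.3 in treat, with 24 and 34 such cells at day 7, so that treat was above ctrl at days 1 and 3 and below it at day 7.

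Ccl19 was also called in macrophage-like cells at day 7, from very low levels: it stood at 0 in all 3 sham samples, at 2.70, 1.34 and 4.93 CPM in ctrl and at 6.99, 8.001 and 5.21 CPM in treat. The day 7 level was at least 15.2-fold higher than the floor of 3 UMIs over the sham group (adjusted p = 0.0460; 2.17% of genes called). The profile of empty barcodes accounted for 20.3 to 76.1% of these UMIs in the 4 samples for which it was estimated (ctrl day 7 and the treat samples), and with that profile subtracted the adjusted p was 0.0552. The call was also lost without doublet removal (0.0837), at a finer clustering (0.0534), without sham 2 (0.136), sham 3 (0.181), ctrl day 1 (0.0967), ctrl day 7 (0.327), treat day 1 (0.0954) or treat day 7 (0.0839), and without any of 8 libraries (library 1 of ctrl day 1, libraries 1 and 2 of ctrl day 7, libraries 1, 2 and 3 of treat day 1, library 2 of treat day 3 and library 1 of treat day 7; 0.0513 to 0.0958).

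Cxcl13 in macrophage-like cells, its main source, was not called at any day. It stood at 118, 14.7 and 56.9 CPM in sham, 422, 231 and 532 CPM in ctrl and 213, 468 and 667 CPM in treat. Each transplant sample was above each sham sample. The log2 fold changes were 2.43 (SE 0.75, adjusted p = 0.109), 2.53 (SE 0.75, adjusted p = 0.0919) and 3.32 (SE 0.76, adjusted p = 0.0697) at days 1, 3 and 7 (0.813, 2.72 and 2.17% of genes called), and treat and ctrl differed by 0.13 (SE 0.67). Macrophage-like cells were 16.9, 14.0 and 9.22% of sham cells, 6.59, 14.2 and 10.1% of ctrl cells and 5.26, 5.49 and 11.9% of treat cells, with sham and transplant samples overlapping.

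Cxcl13, too, sat in few cells: 577 macrophage-like cells (4.43%) with at least 10 UMIs held 87.3% of the macrophage-like UMIs. They numbered 2, 1 and 5 in sham, 24, 33 and 171 in ctrl and 46, 44 and 251 in treat. After thinning to 1000 UMIs, the percentage with a Cxcl13 UMI was 5.04, 1.59 and 3.18 in sham, 9.60, 6.22 and 10.1 in ctrl and 8.75, 14.0 and 13.8 in treat, with 0 to 0.67 in BEC-like cells; unthinned it was 5.64, 2.30 and 4.96, 14.2, 9.24 and 14.4, and 11.7, 19.7 and 20.8. All 6 transplant samples were above all 3 sham samples by both counts.

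The macrophage-like clusters were not equally present. Cluster c13, with few UMIs per cell, was 78.0% of macrophage-like cells of sham 1 and 77.6% of ctrl day 1, 1.84 and 1.56% of sham 2 and 3, and 27.8 to 44.2% of the other samples. Inside the most common cluster, c6, Cxcl13 stood at 7.30 and 34.3 unscaled CPM in sham 2 and 3 (sham 1 had 7 such cells and no UMI), at 355, 116 and 556 in ctrl and at 171, 322.5 and 442 in treat. Inside c20 it stood at 75.5, 29.75 and 98.4 in sham, 406, 528 and 240 in ctrl and 337.5, 391 and 822.5 in treat. Sham and transplant samples did not overlap inside either cluster. Libraries 2 and 3 of ctrl day 3 had 4.91 and 14.3 CPM against 249 in library 1, and the other transplant libraries had 59.5 to 1279.

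**Figure D4:**
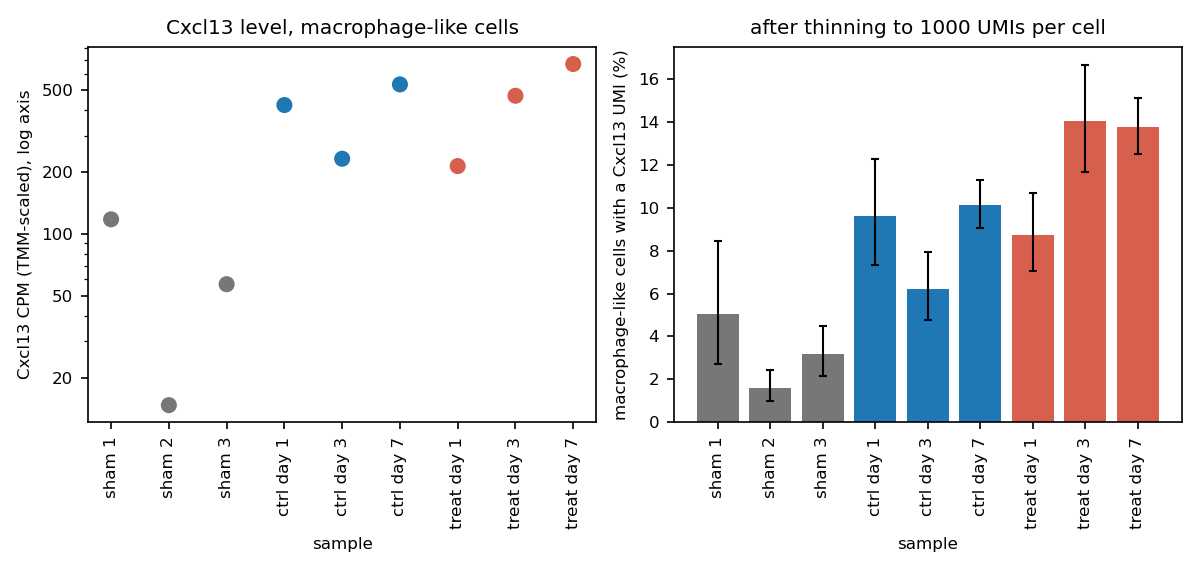
Cxcl13 in macrophage-like cells of each sample. Left, TMM-scaled CPM on a log axis; right, percentage of cells with at least 1 Cxcl13 UMI after thinning to 1000 UMIs per cell, with 95% exact binomial intervals. The 3 sham samples, at 14.7 to 118 CPM, lie below the 6 transplant samples, at 213 to 667 CPM, none of whose differences passed the adjusted threshold.

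Away from macrophages, Cxcl13 was called at day 7 in stromal cells, from few UMIs. Other types had levels of the order of VSMC-like cells at day 7, without a call. In unscaled CPM of ctrl and treat, T-like cells had 11.1 and 8.70 and plasmacytoid DC-like cells 13.5 and 16.8. Both types had 0 in the sham samples that held them. Monocyte-like cells had 17.9 and 16.9, and some types far less, such as lymphatic EC-like cells with 0.774 and 0. In fibroblast-like cells Cxcl13 stood at 7.30, 0.458 and 0.369 CPM in sham, 3.93, 2.51 and 64.9 CPM in ctrl and 0.571, 3.99 and 7.05 CPM in treat. The ctrl day 7 sample was far above the rest, and sham 1 lay above treat day 7. Day 7 was higher than sham by 5.44 (SE 1.17, adjusted p = 0.0498; 6.53% of genes called) and than day 1 by 4.002 (SE 1.07, adjusted p = 0.0387; 26.6%). The libraries of ctrl day 7 held 5.29, 101.5 and 249.7 unscaled CPM, and those of treat day 7 held 5.38, 10.2 and 5.13. The sham call was lost under DESeq2 (adjusted p = 0.120), without the low-count filter (0.103), with the empty-barcode profile subtracted (0.0850), without sham 2 (0.279), sham 3 (0.324), ctrl day 1 (0.0519), ctrl day 7 (0.305), treat day 1 (0.0558) or treat day 7 (0.155), and without any of 6 libraries (libraries 2 and 3 of ctrl day 1, library 1 of ctrl day 7, library 1 of treat day 1, library 3 of treat day 3 and library 2 of treat day 7; 0.0573 to 0.0774). The call against day 1 was lost without the low-count filter (0.0916), with subtraction (0.0552), and without sham 2, sham 3 or either sample of day 1 or day 7 (0.0805 to 0.346), or library 3 of ctrl day 1, library 1 of treat day 1 or library 2 of treat day 7 (0.0521 to 0.0556).

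In VSMC-like cells Cxcl13 stood at 0 in sham, at 2.43, 0 and 14.4 CPM in ctrl and at 0, 0.516 and 19.3 CPM in treat, with 50 and 29 UMIs at day 7. The day 7 level was at least 5.9-fold higher than the sham floor (adjusted p = 0.0469; 4.55% of genes called) and higher than day 1 by 3.51 (SE 0.81, adjusted p = 0.0306; 4.73%). It rested on 2 libraries: library 2 of ctrl day 7 held 47 of 50 UMIs and library 3 of treat day 7 held 27 of 29. With DESeq2 the adjusted p values were 0.578 and 0.722, without doublet removal 0.160 and 0.201, and with the empty-barcode profile subtracted the sham comparison had 0.0505. The sham call was lost without any sham sample or either sample of day 3 or day 7 (0.0546 to 0.456), and without library 2 or 3 of ctrl day 1, library 1 of ctrl day 3, library 2 or 3 of treat day 3 or library 2 of treat day 7 (0.0501 to 0.0797). The call against day 1 was lost without ctrl day 7 (0.318), treat day 1 (0.189), treat day 7 (0.311), library 3 of ctrl day 1 (0.0915) or library 2 of treat day 3 (0.057).

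Tnfsf13b, the survival ligand, was not called in any cell type. In fibroblast-like cells it stood at 80.3, 43.4 and 36.0 CPM in sham, 30.2, 44.7 and 54.8 CPM in ctrl and 26.9, 161 and 97.1 CPM in treat. The lowest levels were those of day 1, and treat at days 3 and 7 was above all sham samples, but the class held other clusters at each time, as given for Ccl19. Inside c10 Tnfsf13b stood at 242 (13 cells), 61.6 and 77.2 unscaled CPM in sham, at 131 (15 cells), 46.7 and 54.7 in ctrl and at 12.98, 157.5 and 99.6 in treat, so that sham and treat overlapped there. The log2 fold changes over the class were -0.73, 0.87 and 0.56 at days 1, 3 and 7 against sham, 1.30 (adjusted p = 0.0972) between days 7 and 1, and 0.84 (adjusted p = 0.418) between treat and ctrl. In macrophage-like cells it stood at 53.9, 12.6 and 16.3 CPM in sham, 37.4, 11.8 and 25.6 in ctrl and 14.7, 19.9 and 42.3 in treat, with the groups overlapping.

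B-like cells, which held most Tnfrsf13c UMIs, were few in sham. They numbered 8, 16 and 4 in sham, 104, 207 and 4771 in ctrl and 506, 989 and 2243 in treat, or 0.347, 0.172 and 0.0359%, 0.808, 2.72 and 15.04%, and 2.23, 6.03 and 8.67% of cells. In this class every transplant sample was above every sham sample. Of the Cd79b UMIs, B-like cells held 19 of 60, 34 of 113 and 7 of 87 in sham 1, 2 and 3, against 266 of 291 in ctrl day 1 and 8874 of 10400 in ctrl day 7. The class can thus leave out B cells of sham. Over all cells Cd79b stood at 6.52, 2.08 and 1.36 unscaled CPM in sham. It stood at 2.98 in ctrl day 1, below sham 1, so that the order did not hold for this gene. In sham 1, 36 of its 60 UMIs lay in 3 plasma cell-like cells. The share of B cells outside the class was not tested. The mean share was 5.92% after LT against 0.185% in sham, a difference of 5.73 points (exact permutation test, two-sided, p = 0.107; the smallest possible p is 0.0119). The treat minus ctrl difference was -0.545 points, with treat higher on 2 of 3 days (exact sign-flip test, p = 1; the smallest possible p is 0.25). Libraries of day 7 differed: the share was 15.6, 0.572 and 22.3% in those of ctrl and 11.2, 0.954 and 13.3% in those of treat. All 11 B cell markers summed to 56.2, 31.7 and 24.1 CPM in sham, 25.4, 71.3 and 229 CPM in ctrl and 40.9, 86.0 and 171 CPM in treat. By this sum sham 1 was above the day 1 samples of both arms.

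Within B-like cells the receptor gene was not called. It stood at 470, 297 and 433 TMM-scaled CPM in ctrl at days 1, 3 and 7 and at 621, 657 and 343 CPM in treat, with no sham sample reaching 20 B-like cells. Day 7 differed from day 1 by -0.44 (SE 0.33, adjusted p = 0.999; 0.388% of genes called), and treat from ctrl by 0.39 (SE 0.27, adjusted p = 0.993; 0% called, 271 genes or 3.9% at an unadjusted p under 0.05). After thinning, 24.6 to 41.7% of B-like cells of the transplant samples had a Tnfrsf13c UMI, against 0 to 0.26% of BEC-like cells. Ccr7 in B-like cells stood at 20.7, 15.3 and 24.1 CPM in ctrl and 22.9, 30.5 and 18.0 CPM in treat, a day 7 against day 1 difference of -0.05.

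**Figure D5:**
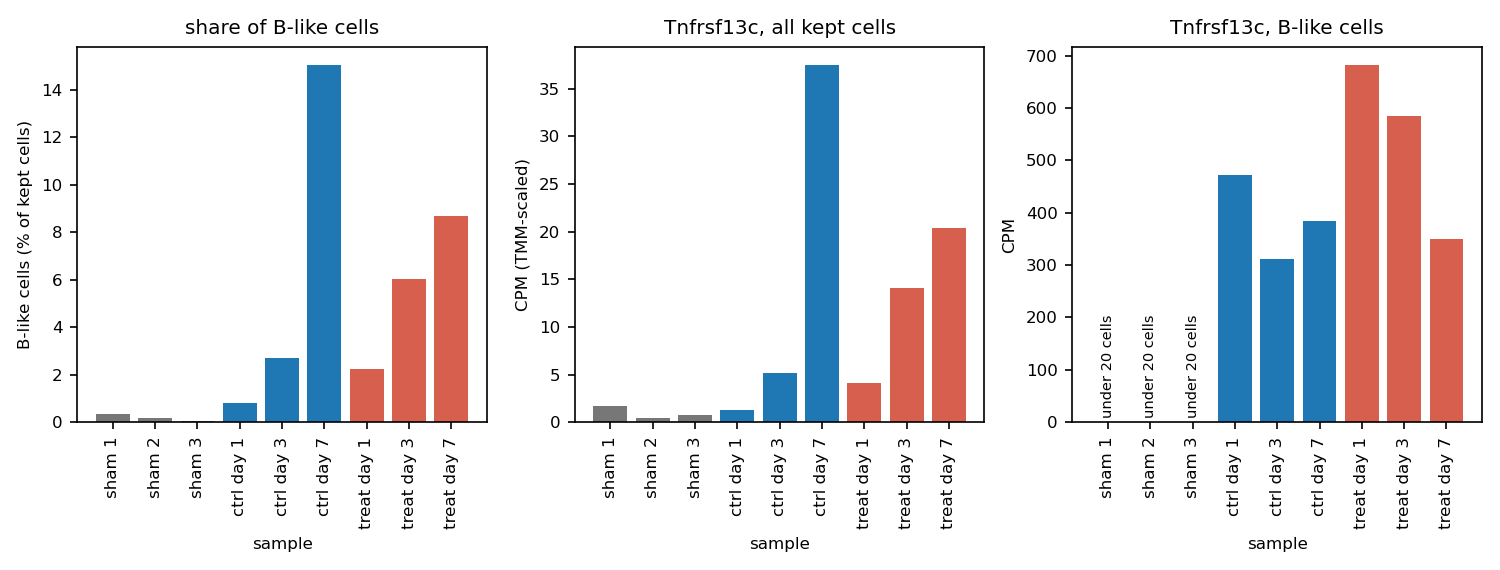
B-like cells and the BAFF receptor gene Tnfrsf13c by sample: left, B-like cells as a percentage of kept cells; middle, Tnfrsf13c in all cells as TMM-scaled CPM; right, Tnfrsf13c CPM within B-like cells, for samples with at least 20 of them. The first 2 panels rise from sham to 15.04 and 8.67% of cells and 37.5 and 20.3 CPM at day 7, whereas the third holds levels of the same order in all 6 transplant samples.

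In T-like cells Tnfrsf13c rose at day 7. It stood at 3.08, 0 and 3.56 CPM in sham, 5.10, 7.89 and 20.04 CPM in ctrl and 4.62, 6.17 and 16.9 CPM in treat. Both day 7 samples were above all others. Day 7 was higher than sham by 2.88 (SE 0.66, adjusted p = 0.0144; 2.66% of genes called) and than day 1 by 1.89 (SE 0.43, adjusted p = 0.0154; 2.03%). T-like cells held 5.80 Tnfrsf13c UMIs per UMI of the B cell receptor gene Cd79b, where B-like cells held 0.437, macrophage-like cells 0.345, BEC-like cells 0.420 and NK-like cells 0.926, and the empty-barcode profile accounted for 2.8 to 5.5% of the day 7 UMIs. Cluster c19, led by the cytotoxic genes Gzma, Ccl5 and Nkg7, was 24.4 and 29.4% of T-like cells at day 7 against 1.42 to 6.17% in sham and at day 1, and held 45.3 and 43.0 unscaled CPM there; in c1, the main T-like cluster, Tnfrsf13c stood at 9.99 and 5.32 at day 7 and 4.94 and 4.68 at day 1 in ctrl and treat. The sham samples differed in the makeup of the class: c1 was 90.1, 43.0 and 17.5% of T-like cells of sham 1, 2 and 3. Cluster c34, whose leading genes include Il17a, was 51.2 and 75.2% of T-like cells of sham 2 and 3 and 0.0184 to 1.24% of those of the other samples that held any, with 0 and 2 Tnfrsf13c UMIs in sham 2 and 3. Inside c1, sham 1, 2 and 3 held 1, 0 and 0 UMIs. The part of these clusters in the change was not tested. The call against sham was lost with libraries entered separately (0.160) and without sham 2 (0.107), sham 3 (0.0894), ctrl day 7 (0.177) or treat day 7 (0.0825). The call against day 1 was lost with libraries entered separately (0.0897), without ctrl day 1 (0.0693), ctrl day 7 (0.2495), treat day 1 (0.348) or treat day 7 (0.287), and without library 1 of ctrl day 1, ctrl day 3, ctrl day 7 or treat day 7 or library 2 of treat day 1 (0.0578 to 0.0912).

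Ccr7, which guides naive T cells and mature DCs, was not called within T-like cells, though the day 7 samples of both arms lay below those of day 1. It stood at 21.6, 3.16 and 0 CPM in sham, 19.1, 11.7 and 7.44 in ctrl and 20.4, 13.5 and 6.24 in treat, with a day 7 against day 1 difference of -1.54 (adjusted p = 0.116). Cluster c34, which made up 51.2 and 75.2% of T-like cells of sham 2 and 3, held no Ccr7 UMI. Inside c1 Ccr7 stood at 18.5, 6.80 and 0 unscaled CPM in sham, 17.3, 17.1 and 10.8 in ctrl and 26.4, 16.3 and 10.1 in treat. T-like cells were 3.51, 1.30 and 1.85% of sham cells, 2.04, 6.28 and 18.8% of ctrl cells and 3.42, 14.9 and 20.96% of treat cells. Mature DC-like cells, with the highest Ccr7 level among the named types, numbered 0, 3 and 3 in sham, 272, 18 and 43 in ctrl and 388, 11 and 31 in treat, most of them at day 1. The rise of Ccr7 over all cells stood beside these shifts in cell numbers, whose part was not tested.

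The lymphotoxin gene Lta fell in NK-like cells at day 7. It stood at 15.5, 24.4 and 23.5 CPM in sham, 2.02, 11.7 and 1.998 CPM in ctrl and 21.6, 7.54 and 0.63 CPM in treat, from 2, 7 and 10, 1, 5 and 13, and 21, 5 and 3 UMIs. Both day 7 samples were below every sham sample, and treat day 1 lay within the sham range. The log2 fold change at day 7 was -3.92 (SE 0.90, adjusted p = 0.00858; 8.58% of genes called), and day 7 against day 1 was -3.19 (adjusted p = 0.101). The call was lost without sham 3 (-3.89, adjusted p = 0.0752) or treat day 7 (-2.82, 0.147), and 9 of the 13 UMIs of ctrl day 7 came from library 2, at 17.9 unscaled CPM. In T-like cells Lta stood at 0, 3.16 and 3.56 CPM in sham, 11.5, 4.84 and 3.23 CPM in ctrl and 8.96, 6.17 and 4.21 CPM in treat, and was not called.

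Of 50 other genes of lymphoid tissue organization and B cell help, 49 were tested over all cells. There were 2, 9 and 13 higher at days 1, 3 and 7 against sham, 7 between days 7 and 1 and none between treat and ctrl, with none lower in any comparison, where 4.54, 5.18, 7.97, 3.08 and 0% of all genes were called in either direction. Their median log2 fold changes were 0.28, 0.50, 0.69, 0.76 and 0.15. Without sham 1 the counts against sham were 10, 18 and 23 (12.7, 14.8 and 20% of all genes called). Without ctrl day 1 none was called at day 1, without treat day 3 none at day 3 and without ctrl day 7 none at day 7 (0.00596, 0 and 0.0179% of all genes called). By list, in the same order of comparisons, the calls were 1, 5, 7, 4 and 0 of 14 genes of B cell survival and help, 1, 1, 1, 2 and 0 of 9 chemokines and receptors, 0, 1, 2, 0 and 0 of 8 lymphotoxin and TNF family genes, 0, 1, 2, 1 and 0 of 7 genes of noncanonical NF-kappaB signaling, and 0, 1, 1, 0 and 0 of 11 genes of stromal organization and homing. The median log2 fold change at days 1, 3 and 7 was 0.40, 1.64 and 2.43 for B cell survival and help, and -0.91, -0.11 and 0.49 for the chemokines and receptors, and those of the other lists lay between -0.33 and 0.87. Il21, the cytokine of follicular helper T cells, had 0, 1 and 0 UMIs in sham, 0, 30 and 198 in ctrl and 10, 129 and 173 in treat (adjusted p = 0.0297 at day 3 and 0.0195 at day 7). Its receptor gene Il21r stood at 8.62, 6.95 and 7.44 CPM in sham, 20.2, 39.3 and 93.1 CPM in ctrl and 17.2, 61.1 and 85.0 CPM in treat, with no overlap of sham and transplant samples (day 7: 3.55, SE 0.23, adjusted p = 0.00628; day 1: 1.29, adjusted p = 0.0398).

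Icos, the costimulator of helper T cells, stood at 11.9, 3.76 and 5.23 CPM in sham, 4.44, 37.4 and 64.0 in ctrl and 10.2, 94.99 and 73.0 in treat (day 7: 3.37, SE 0.52, adjusted p = 0.0204). Cd40lg, the T cell ligand of CD40, was higher by 2.63 at day 3 (adjusted p = 0.0192) and 2.50 at day 7 (0.0167), and Cd40 by 2.27 at day 3 (0.0411). Cr2, the complement receptor gene of B cells and follicular dendritic cells, was higher by 4.21 at day 7 (SE 0.87, adjusted p = 0.0397). Selplg, a selectin ligand, was higher by 2.67 and 2.54 at days 3 and 7 (0.0411 and 0.0373), and Cxcr4, the receptor of Cxcl12, by 0.81 at day 1 (0.0400). Between days 7 and 1, Il21 (5.70), Icos (3.38), Cd40lg (2.42), Il21r (2.25), Cxcr6 (1.97) and Birc3 (1.66) had the greatest differences among those called (adjusted p 0.0240 to 0.0492).

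The direct partners of the 8 genes were not called. Ccl21, the other Ccr7 ligand, stood at 2114, 2162 and 588 CPM in sham, 119, 206 and 271 CPM in ctrl and 374, 935 and 162 CPM in treat, with log2 fold changes of -2.92 (adjusted p = 0.100), -1.79 and -2.68 (0.103) at days 1, 3 and 7. These changes had the opposite sign to those of Ccl19 against sham, with none called for either gene, and treat at day 3 lay within the sham range. Between arms, Ccl21 in treat was above ctrl at days 1 and 3 and below it at day 7. Its UMIs lay mostly in lymphatic EC-like cells, such as 125396 of 127843 in sham 2. Those cells were 0.94 to 3.12% of sham cells and 0.24 to 1.21% of transplant cells. Inside them Ccl21 stood at 66030, 94810 and 87880 unscaled CPM in sham, 12810, 60500 and 26820 in ctrl and 19510, 71870 and 43560 in treat. Of the transplant samples only treat day 3 lay within the sham range, and ctrl day 3 had 22 such cells. The parts of the share and of the level inside these cells were not tested. Ltbr, the lymphotoxin receptor gene, differed by -0.42 at day 7 (adjusted p = 0.146) and by -0.83 between days 7 and 1 (0.0608). Tnfsf13 (APRIL) differed by 1.02 at day 3 (0.131) and 0.82 at day 7 (0.176). The receptor genes Tnfrsf13b (TACI) and Tnfrsf17 (BCMA) had day 7 values of 4.31 (0.0857) and 3.98 (0.147).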

How the data were processed

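UMI count matrices deposited by the authors per library (whole-number counts per gene and barcode, unnormalized) were used; the submitters' notes name Cell Ranger 5.0.1 and Seurat 3.2.0, and the genome build was not given in the sources used here. Library 1 of treat day 3 was not used here. The 8 genes and all lists were chosen with earlier results of these data known. Kept barcodes had over 400 and under 6000 genes, with mitochondrial UMIs limited to 25% and hemoglobin UMIs to 3%, and barcodes whose doublet score passed percentile 92.5 were dropped. Clustering (Python 3.11.15, scanpy 1.11.5, 2000 variable genes without the 8 genes and their pathway list, 30 components, 15 neighbours, Leiden resolution 0.9) was followed by naming from markers. Cell-type levels are CPM without further scaling (pseudocount 1 on the log2 scale). Summed UMIs were fitted with edgeR 4.0.16 (R 4.3.3; TMM, filterByExpr, adjusted p under 0.05) on sham, day 1, day 3 and day 7 plus a treat term, with 4 residual degrees of freedom where all 9 samples entered. Fits with fewer samples had fewer, such as those of B-like and monocyte-like cells, which held the transplant samples and no sham level. The p-values measure only the spread between these samples. No arm had replicate samples at a day, so that among transplant samples this spread is the disagreement of the arms across days. In the fits with no sham level it is all of the residual spread. The day term pairs ctrl and treat by label. DESeq2 1.42.0 was an alternative. Named pathway genes were the 6 with the greatest change among those called, plus 5 direct partners. On simulated counts at these depths, 0% of 2-fold and 21% of 4-fold changes were recovered over all cells at day 7, with 8.70% of calls false; in macrophage-like, fibroblast-like, VSMC-like, T-like and NK-like cells 59 to 90% of 4-fold changes were recovered, with 7.37 to 15.4% of calls false (15.4% in macrophage-like cells). In B-like cells, at day 7 against day 1, 8% of 2-fold and 61% of 4-fold changes were recovered, with 1.43% of calls false. One gene that the rule for alike genes selects is not reported here.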

Additional observations from a re-analysis of the deposited data

Results flagged for a closer look

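Ccl19 was also measured in an unnamed cluster (c30), whose UMIs are part of the all-cell levels but which entered no comparison within a cell type. Its 930 cells held both endothelial (9 of 9) and smooth muscle (7 of 9) markers, and Ccl19, Tm4sf1 and Col4a1 led it. Ccl19 stood at 637, 928 and 38.1 CPM in sham, 1366, 92.9 and 349 CPM in ctrl at days 1, 3 and 7 and 1375, 5077 and 1909 CPM in treat, which is 1773 CPM in the summed transplant samples against 403 in sham. It is given because the summed transplant level was above that of the control samples in cells that the comparisons within types do not use; single sham and ctrl samples overlapped, and the difference was not tested.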

How the results depend on the processing

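Calls were few and the count of calls depended on single samples, while among single genes 9 values under planned and 4 under added alternatives reversed. The causes of these changes were not tested. Leaving out 1 sample or library gave 0 to 4, 0 to 4, 0 to 4 and 0 to 3 members called over all cells at days 1, 3 and 7 against sham and between days 7 and 1, where 0, 1, 3 and 0 were reported. Within cell types it gave 0 to 5, 0 to 4, 0 to 6, 0 to 7 and, for treat against ctrl, 0 to 3, where 1, 1, 5, 3 and 1 were reported. For the pathway list it gave 0 to 10, 0 to 18, 0 to 23 and 0 to 17. Shares of all genes called are given above for only a few of these fits, so that the ranges cannot be set against them. The highest counts came without sham 1 except at day 7 for members and for day 7 against day 1 and treat against ctrl within types.

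DESeq2 called 2, 5, 4 and 1 members over all cells (day 1, day 3, day 7 against day 1, treat), 3, 4, 6 and 4 within types, and 14, 21, 23 and 21 pathway genes (with day 7). It called 21.5, 21.6, 25.3, 16.4 and 0.268% of all genes over all cells and 14.1, 8.09, 6.44, 9.07 and 0.677% of gene tests within types (day 1, day 3, day 7, day 7 against day 1, treat). DESeq2 size factors gave 2 at day 3, where 745 of 16427 genes were called higher and 169 lower. Library size alone gave 0 at day 3 (247 genes called higher and 241 lower), 6 within types for day 7 against day 1 and 0 pathway genes at day 1 (6 genes called higher and 6 lower). It shifted the median log2 fold change of all genes from -0.08, -0.09 and -0.05 to -0.44, -0.40 and -0.33, and the share of calls that were higher from 76.8, 79.1 and 71.5% to 50, 50.6 and 43.1%; DESeq2 gave 59.3, 57.1 and 53.5%, and libraries as samples 49.4, 52.6 and 49.6%. Without a low-count filter there were 2 at day 3, and 2, 2, 6 and 3 within types (day 1, day 3, day 7 against day 1, treat). With libraries entered separately there were 1, 2, 5 and 4 over all cells (day 1, day 3, day 7, day 7 against day 1), 0, 2, 5 and 2 within types (day 3, day 7, day 7 against day 1, treat) and 6 and 23 pathway genes (day 1, day 7 against day 1). In the order of the counts over all cells, those fits called 1295, 906, 1715 and 2427 of 15780 genes higher and 1328, 817, 1741 and 1879 lower. Without doublet removal there were 3 at day 3 and 1 and 5 for day 7 against day 1, without the hemoglobin limit 2 within types at day 3 and for treat, and with empty-barcode subtraction 2 at day 7. The share of all genes called is not given for the settings that changed the filter, the cells or the subtraction. It is also not given within types for library size alone or for libraries entered separately, so that these counts cannot be set against it.

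Without the replicate block that pairs ctrl and treat by day, only treat against ctrl was fitted, and 0 members were called in it within types. The treat difference reversed there for Cxcr5 (-0.20) and Tnfrsf13c (-0.19). It reversed for Cxcl13 with libraries as samples (0.26) and ranged over samples and libraries left out from -0.41 to 0.80 for Cxcl13, -0.16 to 0.93 for Ccr7 and -0.11 to 1.46 for Cxcr5. Other ranges that crossed 0 were Cxcl13 at day 1 (-0.18 to 2.05), Lta at day 1 (-0.78 to 0.013), Tnfsf13b at day 3 (-0.43 to 0.053) and Ccl19 between days 7 and 1 (-2.30 to 0.21). The B-like share differed between treat and ctrl by -2.475 to 2.37 points. Few UMIs limit what can be read for Cxcr5, with 115 in all, and Ltb, whose 7 entered no test. The reason for these low counts was not tested.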

Other observations

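The Ccr7 UMIs outside named cells lay largely in unnamed cluster c21 (2294 cells, a median of 827 UMIs per cell). Ccr7 stood there at 0, 177 and 357 CPM in sham, 916, 107 and 117 CPM in ctrl at days 1, 3 and 7 and 821, 542 and 198 CPM in treat. The summed levels were 205 CPM after LT and 214.5 CPM in sham, the latter from 8 UMIs in 37 cells.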
